A study of Mus musculus with 6 samples.

Results

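The genes described here are those of endoplasmic reticulum (ER) protein folding and quality control: the ER stress sensors, the ER chaperones, the disulfide isomerases and their oxidases, and the genes of ER-associated degradation, translocation and ER exit, without the targets of ATF4. The set holds 36 genes of the 55487 gene identifiers in the deposited tables. They were taken by name and not by any measured value, but with earlier results of these data known. Of these, 35 reached a mean of 0.5 TPM (reads per transcript length, scaled to the same total in each library), the floor above which 13829 genes were tested, and Derl3, an ER-associated degradation factor, did not. RNA-seq was performed on J774 cells, a mouse macrophage line, of which 3 biological replicates received control siRNA and 3 received NCOA4 siRNA, both delivered in liposomes. The NCOA4 arm used 1 siRNA, so an effect of losing NCOA4 and an effect of that siRNA on other transcripts cannot be told apart. NCOA4 binds ferritin and takes it into selective autophagy, through which stored iron is released, and the comparison addresses how the macrophage transcriptome responds when it is depleted.

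Secreted and membrane proteins fold in the ER, where chaperones such as BiP hold unfolded chains and disulfide isomerases form their disulfide bonds. When folding fails, IRE1 (encoded by Ern1), PERK (encoded by Eif2ak3) and ATF6 signal in separate branches: IRE1 splices the Xbp1 transcript so that it encodes an active transcription factor, ATF6 is cleaved in the Golgi to release one, and PERK slows translation, which favours ATF4. XBP1 and ATF6 drive many of the chaperone and degradation genes through promoter elements that hold CCAAT and CCACG, and macrophages depend on this machinery for the proteins they secrete and display. The values below are gene totals, so spliced and unspliced Xbp1 transcripts were not separated.

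The promoter elements are shown because XBP1 and ATF6 act through them. The set was assembled around these factors, so a high share of elements in it follows in part from the choice of genes. The ER stress response element (ERSE) was searched as CCAAT, 9 bases of any kind and CCACG, and the related ERSE-II as ATTGG, 1 base of any kind and CCACG, on both strands, from 250 bases before to 50 bases after each RefSeq gene start (GRCm38.p6). RefSeq promoters were matched for 31 of the 36 genes. ERSE was present in 10 of these (32.3%) against 39 of 32851 promoters of all genes (0.119%), and ERSE-II in 2 (6.45%) against 12 of 32851 (0.0365%). The 10 were Hspa5, Hsp90b1, Calr, Canx, Dnajc3, Creld2, Pdia6, Ero1lb, Syvn1 and Derl3, with a pair of elements in Hsp90b1, and the genes with ERSE-II were Dnajb11 and Herpud1. Of the 13 elements, 9 are given as examples in the lines that follow, 5′ to 3′ in the orientation searched, with 10 flanking bases on each side and the matched letters in capitals.
Hspa5, ERSE, chr2:34772015-34772053, gene on the plus strand, read on the gene's strand: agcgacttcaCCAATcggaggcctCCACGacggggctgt
Hsp90b1, ERSE, chr10:86705628-86705666, gene on the minus strand, read on the gene's strand: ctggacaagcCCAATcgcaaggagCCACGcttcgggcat
Hsp90b1, ERSE, chr10:86705523-86705561, gene on the minus strand, read on the opposite strand: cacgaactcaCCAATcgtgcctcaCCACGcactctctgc
Calr, ERSE, chr8:84847065-84847103, gene on the minus strand, read on the opposite strand: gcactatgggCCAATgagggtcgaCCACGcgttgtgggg
Canx, ERSE, chr11:50325790-50325828, gene on the minus strand, read on the gene's strand: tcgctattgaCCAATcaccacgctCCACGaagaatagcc
Pdia6, ERSE, chr12:17266481-17266519, gene on the plus strand, read on the gene's strand: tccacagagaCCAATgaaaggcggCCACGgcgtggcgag
Ero1lb, ERSE, chr13:12565672-12565710, gene on the plus strand, read on the opposite strand: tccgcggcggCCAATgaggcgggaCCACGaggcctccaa
Syvn1, ERSE, chr19:6046522-6046560, gene on the plus strand, read on the gene's strand: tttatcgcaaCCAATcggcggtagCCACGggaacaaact
Herpud1, ERSE-II, chr8:94386367-94386397, gene on the plus strand, read on the gene's strand: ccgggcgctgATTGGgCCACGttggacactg

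The promoter of Ero1lb, the gene of the set with the largest change, is given up to its RefSeq start on the plus strand, at chr13:12565633-12565882 (GRCm38.p6). Its ERSE lies on the opposite strand, 201 to 183 bases before the start, so that the capitals read CGTGG and then ATTGG here.
Ero1lb promoter: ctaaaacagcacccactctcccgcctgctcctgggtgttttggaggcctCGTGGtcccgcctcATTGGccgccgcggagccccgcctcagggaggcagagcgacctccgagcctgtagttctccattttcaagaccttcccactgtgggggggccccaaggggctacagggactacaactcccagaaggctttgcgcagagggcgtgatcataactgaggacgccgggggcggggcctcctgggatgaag

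The libraries held 15738600 to 18563209 reads on genes, rebuilt from the TPM values, and 1 read on a transcript of 1 kb was worth 0.165 to 0.192 TPM. Ncoa4, the siRNA target, was at 19.8, 22.5 and 22.4 TPM in the control libraries and 9.63, 8.60 and 8.88 TPM in the NCOA4 siRNA libraries, 41.9% of control (log2 fold change -1.21, limma adjusted p = 0.00127). All 8 macrophage markers examined were above the floor. Of them, 7 were higher and 1 was lower in every NCOA4 siRNA library than in every control library, where 16.6% and 11.8% of all genes were. By limma, 4 passed as higher (Adgre1, Csf1r, Mertk and Fcgr1), where 3.11% of all genes did. The summed level of the 8 markers was 7295 to 7446 TPM in the control and 7760 to 7910 TPM in the NCOA4 siRNA libraries. Their part in the results below was not tested. Markers of 4 other cell types were low: the summed level in any library was at most 0.0265 TPM for fibroblasts, 0.150 TPM for epithelium, 1.58 TPM for T cells, with Cd3e at 0, and 1.61 TPM for endothelium. In the T cell and endothelial lists, 1 gene each reached the floor of 0.5 TPM, and neither passed the test.

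In NCOA4 siRNA-treated cells, the disulfide isomerase Pdia4 and the ER oxidase Ero1lb passed as lower and the sensor gene Ern1 as higher. The other 32 genes tested did not pass at a limma adjusted p of 0.05. Among all genes, 2.31% passed as lower and 3.11% as higher. Over the 16 alternatives the call held in 5 for Ern1, 11 for Pdia4 and 12 for Ero1lb. The changes were small except for Ero1lb, the only gene of the set past a fold change of 1.5, which dropped to 59.7% of control. The 36 genes together took 8252, 8559 and 8379 TPM in the control libraries and 7837, 7722 and 7790 TPM in the NCOA4 siRNA libraries, so the groups did not overlap. The summed level was 8397 ± 155 against 7783 ± 57.9 TPM (SD, n = 3 each), or 92.7% of control. The most abundant genes weigh most in this sum. They were P4hb (means of 1605 and 1389 TPM), Calr (1273 and 1135 TPM) and Pdia3 (859 and 778 TPM), none of which passed by limma. The sensors, degradation and translocation classes summed to 102.3%, 98.0% and 101.1% of control. TPM values are shares of the RNA of a bulk sample, in which fewer cells of a kind and less RNA per cell cannot be told apart.

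Across the 35 genes tested, the log2 fold change was positive for 12 and negative for 23, with a median of -0.05 and a range of -0.70 to 0.27, whereas the median of all 13829 genes was 0.03 (interquartile range -0.08 to 0.15) and 42.6% of them were negative. By limma, 2 passed as lower, where 2.31% of all genes did, and 1 passed as higher, where 3.11% did. Among all genes, 1.18% passed both an adjusted p of 0.05 and a fold change of 1.5. At an unadjusted p of 0.05, 13 of the 35 were lower and 1 was higher, where 8.84% and 12.7% of all genes were. By limma-voom on the rebuilt reads, 4 passed as lower and 1 as higher, where 3.98% and 6.86% of all genes did. The NCOA4 siRNA libraries all lay below the control libraries for 14 of the 35 genes, against a background of 11.8% of all genes, and all above for 3, against 16.6%. In each NCOA4 siRNA library on its own, the median of the genes of the set relative to the control mean was -0.03, -0.06 and -0.07 on the log2 scale, where the median of all genes was 0.04, 0.02 and 0.03. The control libraries were spread over -0.03 to 0.03 by both measures. An exact two-sided permutation test over the 20 arrangements of 3 against 3 libraries could not go below p = 0.1, which is its value for each of the 17 genes whose groups did not overlap.

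**Figure D1:**
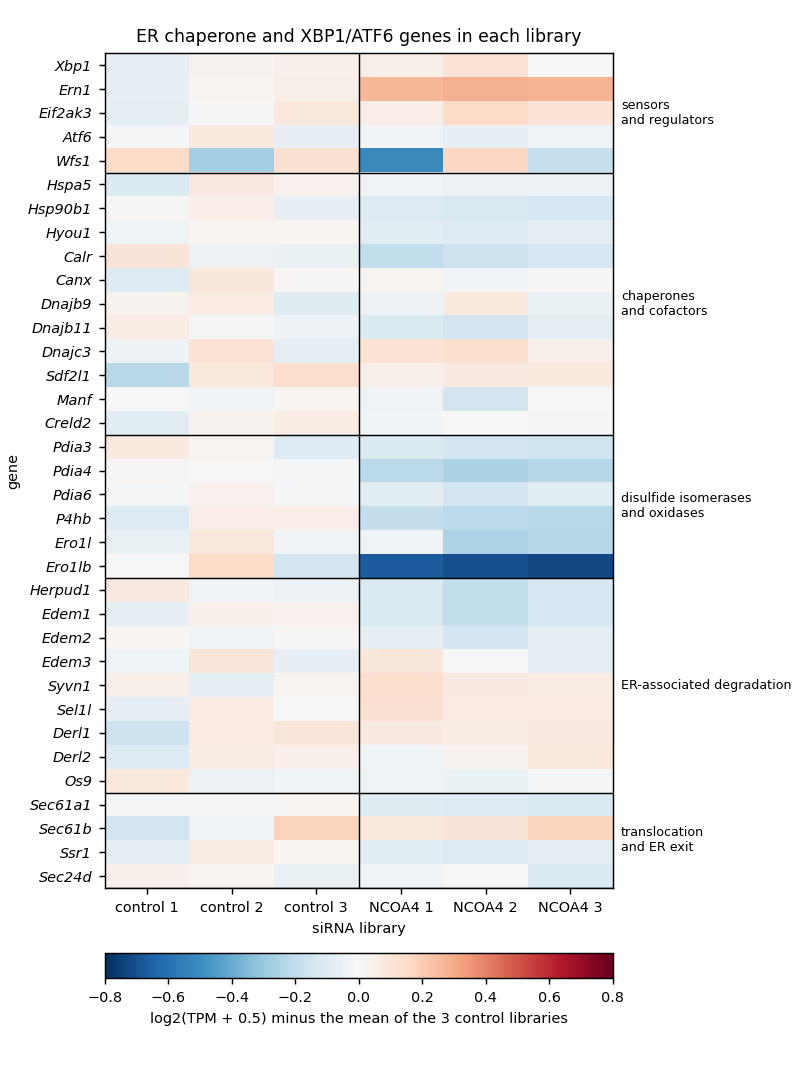
Each row is a gene of the set and each column a library, coloured by log2(TPM + 0.5) minus the mean of the 3 control libraries, from blue (lower) to red (higher), with rows grouped by role. The disulfide isomerase and oxidase rows are blue in the NCOA4 siRNA columns, faintly so for Ero1l in replicate 1, and Ero1lb is the darkest at -0.70 on average, while Ern1 is the one row that is clearly red in all 3.

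Another scaling moved the balance of calls. With the libraries centred on their medians, 7 genes passed as lower (Edem1, Ero1lb, Hyou1, P4hb, Pdia4, Pdia6 and Sec61a1) and 0 as higher, while 4.5% and 2.52% of all genes did. With quantile normalization 3 passed as lower and 0 as higher, while 3.03% and 2.93% of all genes did. Leaving out any 1 of the 3 NCOA4 siRNA libraries left 0 genes of the set past the limma threshold in either direction (3 to 8 lower and 1 higher at an unadjusted p of 0.05). In those fits the calls over all genes also went down, to 71 to 82 lower (0.513% to 0.592%) and 94 to 109 higher (0.679% to 0.788%). At an unadjusted p of 0.05, 6.25% to 6.74% of all genes were lower in them and 8.79% to 9.88% higher. Leaving out control replicate 1 gave 4 lower and 0 higher, while 2.78% and 3.28% of all genes passed.

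Among the sensors and regulators, Ern1 passed as higher, where 3.11% of all genes did, and the groups overlapped for the other 4 genes. Ern1, which encodes the kinase and endonuclease IRE1 and lies at chr11:106394650-106487852 on the minus strand of mm10, was at 13.5, 14.4 and 14.6 TPM with control siRNA and 17.1, 17.3 and 17.2 TPM with NCOA4 siRNA, from 623 to 846 reads per library. All NCOA4 siRNA values were above all control values. Mean levels were 14.2 ± 0.596 and 17.2 ± 0.118 TPM (SD, n = 3 each), and the log2 difference was 0.27 ± 0.0552 (SE) with a limma adjusted p of 0.0401. This call was lost when any 1 of the 6 libraries was left out (adjusted p 0.0605 to 0.158) and with no expression floor, median centring, quantile normalization or an untrended prior (0.0509 to 0.0620).

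Xbp1, the transcription factor gene whose transcript IRE1 splices, was at 88.9, 94.7 and 95.8 TPM in control and 96.0, 100.6 and 93.2 TPM in NCOA4 siRNA libraries. The groups overlapped, and the log2 fold change of 0.05 had a 95% confidence interval of -0.06 to 0.17 (limma adjusted p = 0.576). With median centring it was -0.01. Eif2ak3, encoding PERK, was at 13.0, 13.6 and 14.5 TPM against 14.2, 15.3 and 14.8 TPM, with the lowest NCOA4 siRNA value under the highest control value (log2 fold change 0.11, interval -0.05 to 0.26, limma adjusted p = 0.393). Atf6, which encodes the membrane-bound transcription factor of the third branch, was at 87.2, 92.7 and 84.0 TPM against 86.7, 83.9 and 85.8 TPM (log2 fold change -0.04, interval -0.15 to 0.07, limma adjusted p = 0.667). Wfs1, an ER membrane protein gene, rested on few reads at 1.32 to 2.42 TPM over all libraries, and its interval of -0.71 to 0.36 allows a sizeable change in either direction. Summed over these 5 genes, the NCOA4 siRNA libraries were at 102.3% of control.

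**Figure D2:**
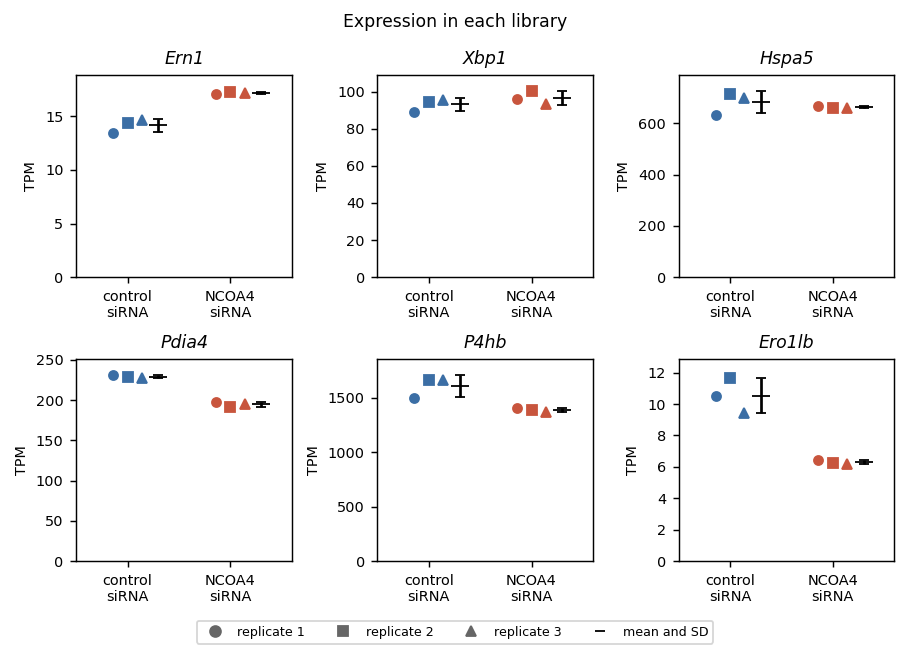
TPM of 6 genes in each library, with the 3 control siRNA libraries at left in blue and the 3 NCOA4 siRNA libraries at right in red, and the mean and SD beside each group; every axis starts at 0. Ern1 is higher, and Pdia4, P4hb and Ero1lb are lower, in all 3 NCOA4 siRNA libraries than in any control library, while Xbp1 and Hspa5 overlap.

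The chaperones and their cofactors took the largest summed level of the 5 classes, and none of the 11 passed the test by limma, where 4 were lower and 0 higher at an unadjusted p of 0.05 (8.84% and 12.7% of all genes). By limma-voom on the rebuilt reads 1, Calr, passed as lower. Hspa5 encodes BiP, the main ER chaperone and a standard marker of the response. It was at 633, 716 and 699.7 TPM in control libraries and 669, 661 and 661 TPM in NCOA4 siRNA libraries. Every NCOA4 siRNA value lay inside the control range, and the log2 fold change was -0.04 with an interval of -0.17 to 0.09 (limma adjusted p = 0.713). Its means were 683 ± 44.1 and 663 ± 4.74 TPM (SD, n = 3 each).

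The lectin chaperone and calcium-binding protein calreticulin, encoded by Calr and ranked 93 of 13829 genes by mean TPM, was at 1363, 1234 and 1223 TPM in control and 1111, 1134 and 1159 TPM in NCOA4 siRNA libraries. These groups did not overlap, yet the difference (log2 fold change -0.16, interval -0.29 to -0.04) missed the threshold at a limma adjusted p of 0.139. Hsp90b1, the gene of the HSP90 family chaperone GRP94, was at 599, 618 and 569 TPM against 553, 547 and 540.3 TPM, again without overlap (log2 fold change -0.12, interval -0.22 to -0.02, limma adjusted p = 0.160). Part of its exon sequence, 10.3%, is also annotated to 1810014B01Rik on the opposite strand, at a mean of 4.309 TPM. Whether reads were counted by strand is not given in the sources used here.

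The remaining chaperone genes were divided. Hyou1, a large HSP70-like nucleotide exchange factor gene, and Dnajb11, a BiP co-chaperone gene, were lower in all 3 NCOA4 siRNA libraries, at 160.4 ± 3.31 against 151 ± 1.52 TPM and 85.4 ± 3.04 against 79.0 ± 2.33 TPM (SD, n = 3 each). Their limma adjusted p values were 0.198 and 0.203. The groups overlapped for Canx, the membrane-bound partner of calreticulin, for the co-chaperone genes Dnajb9, Dnajc3 and Sdf2l1, for Manf, which encodes a secreted ER stress-inducible factor, and for Creld2, with log2 fold changes from -0.06 (Manf) to 0.09 (Dnajc3) and limma adjusted p values of 0.441 or more. The signs of Canx, Dnajb9, Sdf2l1 and Creld2 turned under at least 1 alternative. Over the class, 3 log2 fold changes were positive and 8 negative, and 4 genes had separate groups, all lower, against 11.8% of all genes. The summed level went from 3716 ± 53.7 to 3494 ± 23.0 TPM (SD, n = 3 each), or 94.0% of control.

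The disulfide isomerases and oxidases were the class in which all 6 genes had a negative log2 fold change, with a median of -0.19. Their summed level was 3223, 3393 and 3285 TPM in control and 2970.0, 2883 and 2886 TPM in NCOA4 siRNA libraries, or 88.3% of control. Pdia4 and Ero1lb passed the test as lower, where 2.31% of all genes did. For 5 of the 6 the groups did not overlap, all lower, where this held for 11.8% of all genes. Related genes outside the set, among the other ER folding factors, went both ways. Pdia5 (log2 fold change -0.31) and Erp29 (-0.18) were lower and Tmx2 (0.29) and Tmx3 (0.23) higher, each without overlap. The groups of Tmx1, Tmx4, Txndc5, Txndc11, Txndc12 and Erp44 overlapped, with values from -0.12 (Tmx4) to 0.075 (Tmx1). Only Tmx2 of these passed by limma. The difference between this class and the others was not tested.

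Pdia4, which encodes the disulfide isomerase ERp72 and lies at chr6:47796141-47813430 on the minus strand of mm10, was at 231, 229 and 228 TPM in control and 197, 192 and 195 TPM in NCOA4 siRNA libraries. The gap between the groups was many times the spread within either. The mean fell from 229 ± 1.72 to 195 ± 2.75 TPM (SD, n = 3 each), which is 85.0% of control (log2 fold change -0.23 ± 0.0329 SE, limma adjusted p = 0.0131). The call was lost without any 1 of the NCOA4 siRNA libraries (adjusted p 0.0717 to 0.0860) and with an untrended prior (0.0543), while the log2 fold change stayed between -0.29 and -0.22 over the 16 alternatives.

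Ero1lb, listed as Ero1b in RefSeq, encodes an oxidase that passes oxidizing equivalents to the disulfide isomerases and lies at chr13:12565874-12611396 on the plus strand of mm10. It was at 10.5, 11.7 and 9.46 TPM in control and 6.44, 6.26 and 6.18 TPM in NCOA4 siRNA libraries. Every control value was well above every NCOA4 siRNA value. The control mean of 10.5 ± 1.10 TPM compares with 6.29 ± 0.136 TPM after NCOA4 siRNA (SD, n = 3 each). The log2 fold change was -0.70 ± 0.0898 (SE), at a limma adjusted p of 0.00996. Without any 1 of the NCOA4 siRNA libraries the adjusted p was 0.0516 to 0.0546, and the log2 fold change stayed between -0.77 and -0.62 over all alternatives. It is a gene of modest abundance, with 328 to 470 reads per control library and 227 to 249 per NCOA4 siRNA library, and its near copy Gm18562, with 921 bases at 98.0% identity, was at a mean of 0.0601 TPM.

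The 3′ untranslated region of Ero1lb holds the 7 letters GAATGCC, which also occur in the coding sequence of 8 annotated Ncoa4 transcripts. The site is shown because the gene with the largest change in the set shares these letters with the siRNA target. It begins at base 1274 of the 2644 of the 3′ untranslated region of transcript Ero1lb-201, in the window chr13:12608147-12608176 (GRCm38, plus strand), and the 7 letters are in capitals.
Ero1lb site: cattcccctctGAATGCCtagtcttccact
Of 10773 tested genes with an annotated 3′ untranslated region, 1016 (9.43%) hold GAATGCC there. Of those 1016, 61 (6%) were called lower and 32 (3.15%) higher, against 233 (2.39%) lower and 361 (3.70%) higher of the 9757 without it. The letters were chosen with earlier results of these same data known, so these shares are a description and no independent evidence. In the set, 3 of the 35 tested genes hold it, namely Ero1lb, Wfs1 and Sec61a1, and Pdia4 and Ern1 do not. The siRNA sequence was not used here, and its part in the lower Ero1lb level was not tested.

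P4hb, the gene of the archetypal protein disulfide isomerase, was the most abundant of the set and ranked 75 of 13829 genes. It was at 1492, 1663 and 1660.0 TPM in control and 1406, 1388 and 1372 TPM in NCOA4 siRNA libraries. All NCOA4 siRNA values were below the lowest control value, that of replicate 1, and the mean of 1389 ± 17.2 TPM was 86.5% of the control mean of 1605 ± 98.1 TPM (SD, n = 3 each). The log2 fold change of -0.21 (interval -0.34 to -0.08) missed the threshold, with a limma adjusted p of 0.0815. P4hb passed in 5 of the 16 alternatives. Its adjusted p was 0.0056 without control replicate 1, 0.0189 with median centring and 0.0303 with quantile normalization. It was 0.0344 without mitochondrial genes and 0.00799 with limma-voom on the rebuilt reads. P4hb did not pass without control replicate 2 or 3 (0.16 and 0.167) or any 1 NCOA4 siRNA library (0.229 to 0.242). Nor did it with no expression floor (0.198), the replicate block (0.177) or an untrended prior (0.144).

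Pdia3, which encodes the isomerase ERp57 that works with calnexin and calreticulin on glycoproteins, was at 905, 872 and 800.4 TPM in control and 792, 772 and 768 TPM in NCOA4 siRNA libraries. The groups were separate by a narrow margin (log2 fold change -0.14, interval -0.27 to -0.02, limma adjusted p = 0.186). Pdia6, another isomerase gene, was also lower without overlap, at 407 ± 7.85 against 377 ± 9.78 TPM (SD, n = 3 each, limma adjusted p = 0.155). Ero1l, the paralogue of Ero1lb, was far more abundant at 182, 201 and 186 TPM in control and 186, 159 and 162 TPM in NCOA4 siRNA libraries, and NCOA4 siRNA replicate 1 lay within the control range (log2 fold change -0.17, interval -0.34 to -0.001, limma adjusted p = 0.229).

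**Figure D3:**
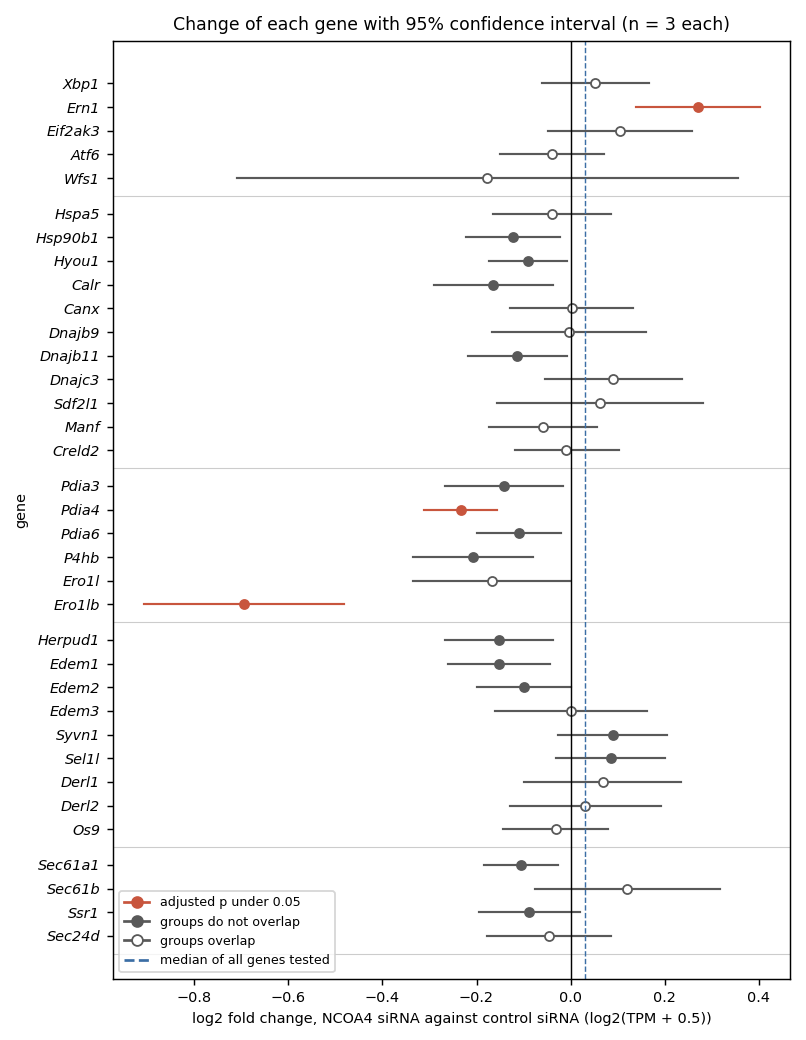
Log2 fold change of each tested gene, NCOA4 siRNA against control siRNA on the log2(TPM + 0.5) scale, with its 95% confidence interval (n = 3 libraries each); red marks adjusted p under 0.05, filled grey marks groups that do not overlap, open circles mark groups that overlap, and the dashed line is the median of all genes tested. All 6 isomerase and oxidase genes lie left of 0, Ero1lb lies farthest at -0.70, and Wfs1 has the widest interval.

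In ER-associated degradation, 9 of the 10 genes were tested and none passed by limma or limma-voom. At an unadjusted p of 0.05, 2 were lower and 0 higher (8.84% and 12.7% of all genes). Herpud1, which organizes the retrotranslocation complex, and Edem1 and Edem2, which act on the mannose residues of misfolded glycoproteins, were lower in all 3 NCOA4 siRNA libraries, with means of 61.5 and 55.3, 140.2 and 126.1, and 53.0 and 49.5 TPM. Their limma adjusted p values were 0.133, 0.120 and 0.239. In the other direction, Syvn1, the gene of the ubiquitin ligase HRD1, and Sel1l, that of its membrane partner, were higher in all 3, with means of 48.8 and 51.9 TPM and of 42.4 and 45.0 TPM (limma adjusted p = 0.342 and 0.361). Edem3, Derl1, Derl2 and the lectin gene Os9 had overlapping groups and log2 fold changes from -0.03 (Os9) to 0.07 (Derl1), with signs that turned under at least 1 alternative. Derl1 shares 652 bases at 95.4% identity with Gm35638, at a mean of 10.3 TPM, so reads could be split between them. The class had 5 positive and 4 negative values with a median of 0.00. Its 3 lower and 2 higher separate groups stand beside 11.8% and 16.6% of all genes. Derl3 had 1 read in NCOA4 siRNA replicate 2 and 0 in the other 5 libraries.

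Among the 4 translocation and ER exit genes, Sec61a1, the pore subunit of the translocon, and Ssr1, a subunit of the associated TRAP complex, were lower in every NCOA4 siRNA library. Sec61a1 went from 134 ± 1.46 to 125 ± 0.971 TPM and Ssr1 from 79.5 ± 3.74 to 74.7 ± 0.601 TPM (SD, n = 3 each, limma adjusted p = 0.131 and 0.321). Of the Sec61a1 exon sequence, 8.16% is also annotated to Gm44170 on the opposite strand, at a mean of 0.419 TPM. The small subunit gene Sec61b (log2 fold change 0.12, interval -0.08 to 0.32) and the COPII coat gene Sec24d (log2 fold change -0.05, interval -0.18 to 0.09) overlapped. None of the 4 passed by limma or limma-voom, and the summed level was 101.1% of control. At an unadjusted p of 0.05, 1 was lower (8.84% of all genes), and 2 had separate lower groups (11.8% of all genes).

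Genes past the threshold were found both with and without a match to the promoter elements searched above. Of the 11 tested genes with ERSE or ERSE-II, 1 passed as lower (Ero1lb) and 6 had separate groups that were lower and 1 (Syvn1) higher. Their log2 fold changes ran from -0.70 to 0.09 around a median of -0.11. Of the 19 tested genes whose promoter held neither, 1 passed as lower (Pdia4) and 1 as higher (Ern1), and 6 had separate groups that were lower and 2 higher, with a median of -0.03 and a range of -0.23 to 0.27. Among all genes tested, 2.31% passed as lower and 3.11% as higher, and 11.8% had separate lower and 16.6% separate higher groups. Hspa5, with an element 65 to 47 bases before its start, overlapped between groups, while P4hb, with none in the window, did not. The 5 genes without a promoter entry, Atf6, Hyou1, Manf, Derl1 and Sec61a1, had a median of -0.06. A match is a match of letters, and only exact letters in the window were sought. A promoter without a match is therefore not shown to lack such an element. The difference between the genes with and without a match was not tested.

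Outside the set, 1 of the other ER genes examined as lists passed by limma. Of 33 other ER folding factors tested, 14 log2 fold changes were positive and 19 negative with a median of -0.02, and none passed as lower by limma (5 lower and 3 higher at an unadjusted p of 0.05, and by limma-voom Erp29 lower and Tmx2 and Tmx3 higher). Tmx2, a thioredoxin-related membrane protein gene, passed as higher at 51.7, 58.9 and 52.5 against 67.8, 67.5 and 63.5 TPM (log2 fold change 0.29, limma adjusted p = 0.0469), a call that was lost in 5 of the 6 fits with 1 library left out, all but that without control replicate 2 (0.0742 to 0.170). None passed in either direction of the 19 genes of glycan processing and oligosaccharyl transfer (median 0.02), of the 25 other ER-associated degradation genes (0.04), of the 21 other translocation genes (0.01), of the 18 COPII and KDEL receptor genes (-0.01) or of the 8 ATF6 relatives and their proteases (-0.01). The summed levels of these 6 lists were 98.7% to 100.2% of control. At an unadjusted p of 0.05, where 8.84% of all genes were lower and 12.7% higher, the 5 lists with no call held 5 genes lower and 6 higher. Ssr4 of the translocation list passed as higher by limma-voom. Of 6 transcripts that IRE1 is known to cleave, 3 were tested, and none passed by limma or limma-voom or at an unadjusted p of 0.05.

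ATF4 and its targets, which serve the PERK branch and the amino acid response, were examined beside the set. Of 25 tested, 4 log2 fold changes were positive and 21 negative with a median of -0.16. By limma, 9 passed as lower and 0 as higher, where 2.31% and 3.11% of all genes did. At an unadjusted p of 0.05 the counts were 13 and 1, where 8.84% and 12.7% of all genes passed. By limma-voom they were 12 and 1, where 3.98% and 6.86% did. Separate groups were found for 14, all lower, against 11.8% of all genes, and the summed level was 89.3% of control. The 4 with the smallest adjusted p were Slc7a5, Asns, Atf4 and Chac1, each lower in every NCOA4 siRNA library than in any control library. The amino acid transporter gene Slc7a5 was at 206, 200.2 and 213 against 166, 165 and 164 TPM (limma adjusted p = 0.00719). The asparagine synthetase gene Asns was at 100.7, 103 and 104 against 82.5, 82.0 and 84.9 TPM (limma adjusted p = 0.00815). Atf4 itself was at 471, 442 and 454 against 369.6, 378 and 373 TPM (limma adjusted p = 0.0116), and Chac1, which encodes a glutathione-degrading enzyme, at 11.8, 9.98 and 11.5 against 6.94, 5.49 and 6.28 TPM (limma adjusted p = 0.0124). The count of 9 became 1 to 9 when 1 library was left out, being 2, 1 and 2 without NCOA4 siRNA replicates 1, 2 and 3, and 5 and 4 without control replicates 2 and 3. Over all genes, the share that passed as lower was 0.513% to 2.78% in the fits with 1 library left out. Of 15 cytosolic HSF1 chaperone genes, 3 were positive and 12 negative with a median of -0.08, and 8 had separate groups, all lower, against 11.8% of all genes. Summed over the 18 genes listed, the level was 11150 ± 243 TPM in control and 10120 ± 22.5 TPM in NCOA4 siRNA libraries (SD, n = 3 each), without overlap. This was 90.8% of control, beside 92.7% for the set. Hsph1, a nucleotide exchange factor for HSP70, was the 1 gene of the list that passed by limma, where 2.31% of all genes passed as lower. It was lower at 118, 118 and 113 against 97.4, 92.4 and 99.1 TPM (limma adjusted p = 0.0190). That call was lost without control replicate 2 or any 1 NCOA4 siRNA library (0.0524 to 0.0879). At an unadjusted p of 0.05, 7 of the 15 were lower and 0 higher (8.84% and 12.7% of all genes), and by limma-voom Hsp90aa1 and Hsp90ab1 also passed as lower. These lists were compared by their counts alone, and no difference between them was tested.

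**Figure D4:**
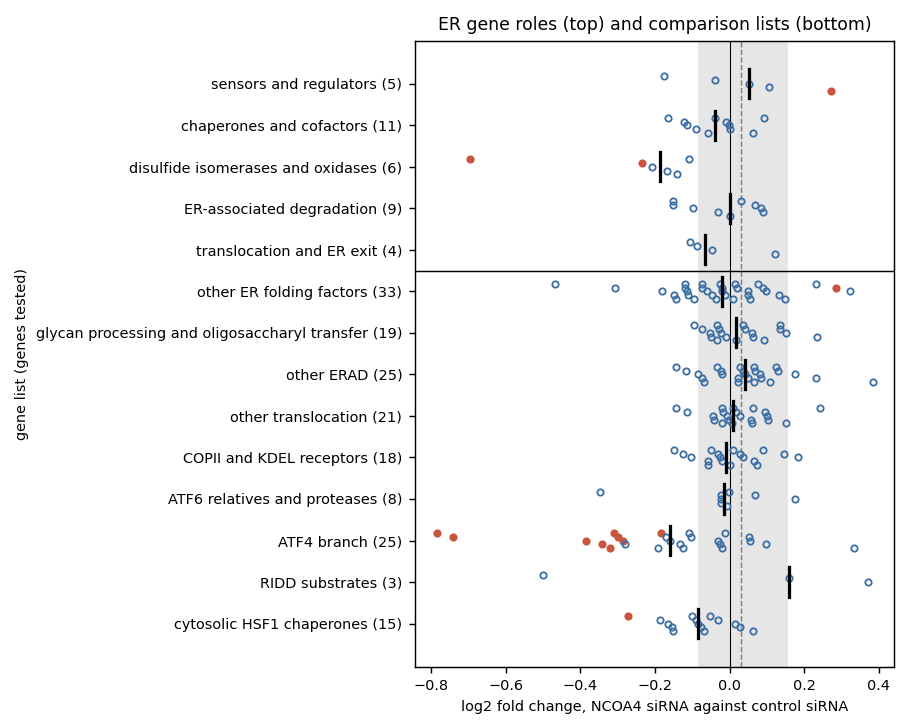
Log2 fold change of each tested gene, NCOA4 siRNA against control siRNA, by role within the set (above the line) and in comparison lists (below it), with filled red points at adjusted p under 0.05, a black bar at each list's median, a dashed line at the median of all genes tested and grey shading over their interquartile range. The isomerases and oxidases (median -0.19) and the ATF4 branch (median -0.16) have medians outside the shading, as do, just past its edges, the HSF1 chaperones (-0.08) and the transcripts that IRE1 cleaves (0.16), while the other lists have medians within it. The list of transcripts that IRE1 cleaves holds 3 tested genes, of which Bloc1s1 and Pdgfrb are near the floor of 0.5 TPM.

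**Figure D5:**
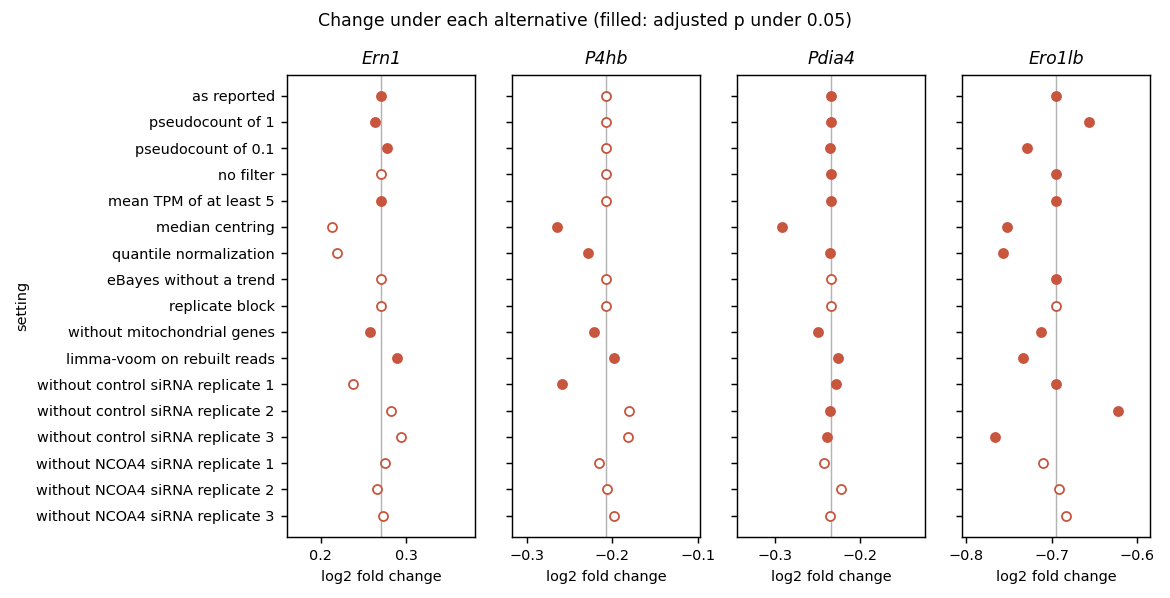
Log2 fold change of Ern1, P4hb, Pdia4 and Ero1lb under the reported settings and each of 16 alternatives, with filled points at adjusted p under 0.05; each horizontal axis covers the range of its own gene and does not include 0. No sign turned for these 4 genes, and Ern1 was past the threshold in 5 alternatives, P4hb in 5, Pdia4 in 11 and Ero1lb in 12.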

How the data were processed

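Gene-level TPM values of 6 poly(A) RNA-seq libraries (TruSeq Stranded mRNA) were used as deposited by the authors, 1 table per library. The submitters' processing notes name Trimmomatic 0.33, FastQC, HISAT2 2.1.0, featureCounts, edgeR and mm10; the annotation release and strand setting are not given in the sources used here. TPM gives each gene's share of a library, so a change in a few abundant genes shifts all others. Symbols, positions and lengths came from GENCODE M21 (55227 of 55487 identifiers). Whole reads were rebuilt from TPM and length within a tolerance of 0.01 for 20759 of 21096 genes above 0, and with a solved length for 336.

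log2(TPM + 0.5) was fitted for the 13829 genes whose mean TPM reached 0.5 with limma 3.58.1 (R 4.3.3; lmFit and eBayes with trend; group only; 3 against 3 libraries), with Benjamini-Hochberg adjustment over all of them. Fold changes are on that scale and understate changes of low genes. The steps were tested on simulated data. The genes and comparison lists were chosen with earlier results of these data known, so no list was tested and counts stand beside those over all genes. Values in every library are given for genes past the threshold, the sensors and Xbp1, the 5 of highest mean TPM, and Ncoa4, with up to 4 called genes per comparison list; a few further genes were added after their values were seen. Promoters came from RefSeq (GRCm38.p6) and 3′ untranslated regions from GENCODE; near copies were sought with blastn 2.17.0 (at least 300 bases at 95% identity). Alternatives were 2 other pseudocounts, 2 other floors, 2 other scalings, removal of mitochondrial genes, an untrended prior, a replicate block, limma-voom on rebuilt reads, and each library left out. One marker list is not reported here. Depth and precision stand in the report. Correlations of same-numbered libraries' deviations (0.03, -0.02 and 0.02) gave no sign of pairing.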

Additional observations from a re-analysis of the deposited data

How the results depend on the processing

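Pdia4, Ero1lb and Ern1 kept their direction in all 16 alternatives, with limma adjusted p values of 0.00337 to 0.0860, 0.000148 to 0.0546 and 0.00584 to 0.158. The counts of the set past the threshold moved from 2 lower to 7 with median centring, 3 with quantile normalization, 3 without mitochondrial genes, 1 with an untrended prior, 4 with limma-voom on rebuilt reads and 0 with the replicate block, and from 1 higher to 0 with no floor, median centring, quantile normalization, the untrended prior and the replicate block. Over all genes, 2.56% passed as lower and 2.86% as higher without mitochondrial genes. With the untrended prior 1.04% and 1.88% did, with the replicate block 0.484% and 0.68%, and with no floor 1.03% and 1.33%. With 1 library left out the counts of the set were 0 to 4 lower and 0 to 0 higher, where 0.513% to 2.78% and 0.679% to 3.28% of all genes passed. In those fits the genes of the set past a fold change of 1.5 were 0 to 1, separate groups were 14 to 18 lower and 3 to 5 higher, and the median log2 fold change was -0.073 to -0.044. Groups of 2 against 3 libraries separate more readily than 3 against 3, and the share of all genes with separate groups is not given for those fits. The replicate block is a fit in which the libraries share only a number. It took the adjusted p of Pdia4, Ero1lb and Ern1 to 0.0772, 0.0515 and 0.128, left 0 genes past the fold change, and moved the calls among all genes from 320 lower and 430 higher to 67 and 94. Separate groups numbered 17 lower and 1 higher with median centring, 12 and 2 with quantile normalization, and 14 and 1 without mitochondrial genes. The share of all genes with separate groups is not given for these settings. The median of the set was -0.10 with median centring and -0.04 to -0.06 in the other settings with all libraries. The all-gene median went from 0.03 to -0.03 with median centring and -0.01 with quantile normalization.

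Signs turned for 9 genes, none of them past the threshold where they did. With median centring the log2 fold changes were -0.056 for Canx, -0.027 for Derl2, -0.057 for Edem3 and -0.005 for Xbp1, with quantile normalization -0.020 for Derl2 and -0.040 for Edem3, without mitochondrial genes -0.013 for both Canx and Edem3, and with limma-voom 0.001 for Creld2. With 1 library left out they ran from -0.050 to 0.048 for Canx, -0.052 to 0.020 for Creld2, -0.014 to 0.115 for Derl1, -0.020 to 0.062 for Derl2, -0.052 to 0.030 for Dnajb9, -0.043 to 0.050 for Edem3, -0.057 to 0.010 for Os9 and -0.050 to 0.133 for Sdf2l1. The cause of these moves was not tested. Of the other values for single genes of the set, 503 kept direction and side, 11 passed only in the alternative and 20 only in the reported fit. For the ATF4 branch, the 9 genes lower became 4 with the untrended prior and 2 with the replicate block, where 1.04% and 0.484% of all genes passed as lower. Low genes such as Wfs1 and Derl3 are limited by depth.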
